A study of Mus musculus with 11 samples.

Results

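The 36 genes described here encode granule proteins, surface receptors, adhesion molecules, NADPH oxidase subunits, proteins of lipid mediator synthesis and other proteins expressed in neutrophils. They were taken by gene symbol from a table of 38406 genes, and all 36 were found. The table holds 11 libraries of back skin RNA. Of these, 6 came from Trex2 KO mice and 5 from WT mice, all female C57BL/6, 8 to 10 weeks old and treated with Imiquimod. Imiquimod activates the receptor TLR7, and its cream inflames mouse skin in a manner that resembles psoriasis. Both groups had 125 mg of 5% cream on shaved back skin daily for 4 days, and the skin was taken 24 hours after the last dose. Trex2 encodes a DNA exonuclease of keratinocytes. The labels write the line as Trex2-/- and name no Cre or tissue, and skin without Imiquimod was not analysed here.

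Neutrophils are short-lived phagocytes that leave the blood and gather in inflamed skin, where they form microabscesses in the epidermis of psoriatic lesions. They carry their weapons in granules that are filled in a fixed order during maturation in the bone marrow. Myeloperoxidase and elastase of the primary granules are transcribed early, in promyelocytes. Lactoferrin, cathelicidin and the other proteins of secondary granules follow in myelocytes, and gelatinase and the receptors of the mature cell come last. At the site of infection the cells roll on endothelium through the ligand PSGL-1, adhere through beta-2 integrins, and release superoxide through the NADPH oxidase.

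The targeted gene was lost as labelled. Trex2 had 1.85 ± 0.909 in Trex2 KO skin and 1479.6 ± 446 in WT skin (SD, n = 6 and 5) normalized counts, a log2 fold change of −9.03 with an SE of 0.25 (limma adjusted p = 5.5e-11). An exact permutation test of the same values, two-sided, gave p = 0.00216, the smallest that 462 splits allow. Counted reads per library ran from 3125366 to 15557862 in Trex2 KO skin and from 1208896 to 5853454 in WT skin, and this depth differed between the genotypes (exact permutation test, two-sided, p = 0.0281). Every value is a normalized count, which is a read count divided by a size factor for its library. Of the 36 genes, 34 had a mean of at least 10 normalized counts over the 11 libraries and were tested among 13215 genes. The other 2, Elane and Mpo, were too low. A log2 fold change is Trex2 KO over WT on the log2(value + 1) scale, a call is an adjusted p of at most 0.05, and all genes tested had a median log2 fold change of 0.01.

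PU.1 and the C/EBP family are transcription factors that are needed to form granulocytes, and their recognition letters were looked for before the starts of the 36 genes. In RefSeq windows of 250 bases before the start (GRCm38.p6), which were held for 29 of the 36 genes, the PU.1 letters GAGGAAGT were found on either strand in 7 of 31 windows, which belong to 6 genes and include both windows of Ly6g. That is 22.6% of the windows, against 2.44% of 32851 windows of all genes. The C/EBP letters TTNNGNAA, where N is any base, were found in 17 of 31 windows (54.8%), against 36.8% of all windows. These shares count whole windows, for the 36 genes as for all genes, and some windows lie inside the gene in GENCODE M21. All 250 bases do so for Pglyrp1, Cybb and both windows of Fcgr3. The genes without a window were Mmp9, Trem3, Itgb2, Selplg, Ncf4, Alox5ap and Osm. The stretch is shown for Mmp8, Ly6g, Fcgr4 and Itgb2l, the tested genes that hold the PU.1 letters, and for Ngp and Ltf, secondary granule genes that hold only the C/EBP letters and had the 2 most negative fold changes. Elane and Mpo, which also hold the PU.1 letters, were too low to test. Capitals mark either motif on either strand in the sequences below, which run 5′ to 3′ on the strand of the gene and stop before the first base of the gene in GENCODE M21. The shown stretches are chr9:7558179-7558428 on the plus strand for Mmp8, chr9:110419558-110419746 on the plus strand for Ngp, chr9:111019042-111019270 on the plus strand for Ltf, chr15:75155011-75155239 on the plus strand for Ly6g, chr1:171018676-171018919 on the plus strand for Fcgr4 and chr16:96443620-96443864 on the minus strand for Itgb2l.
Mmp8: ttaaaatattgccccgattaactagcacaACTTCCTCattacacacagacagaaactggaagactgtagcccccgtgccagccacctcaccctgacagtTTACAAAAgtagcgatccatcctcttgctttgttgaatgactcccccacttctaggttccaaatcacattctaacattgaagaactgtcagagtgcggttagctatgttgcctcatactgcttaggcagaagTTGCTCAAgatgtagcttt
Ngp: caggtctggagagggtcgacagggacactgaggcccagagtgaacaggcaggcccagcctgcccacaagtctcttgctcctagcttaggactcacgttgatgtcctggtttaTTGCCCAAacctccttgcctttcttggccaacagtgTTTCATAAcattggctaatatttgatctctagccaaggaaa
Ltf: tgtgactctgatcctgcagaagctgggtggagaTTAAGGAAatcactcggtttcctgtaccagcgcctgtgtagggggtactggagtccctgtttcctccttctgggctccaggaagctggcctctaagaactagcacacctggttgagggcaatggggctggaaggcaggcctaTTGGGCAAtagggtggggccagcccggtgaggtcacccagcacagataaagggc
Ly6g: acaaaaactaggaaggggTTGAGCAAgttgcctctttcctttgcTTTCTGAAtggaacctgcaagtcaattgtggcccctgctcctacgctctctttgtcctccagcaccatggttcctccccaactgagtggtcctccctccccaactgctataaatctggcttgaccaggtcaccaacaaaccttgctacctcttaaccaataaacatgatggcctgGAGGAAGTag
Fcgr4: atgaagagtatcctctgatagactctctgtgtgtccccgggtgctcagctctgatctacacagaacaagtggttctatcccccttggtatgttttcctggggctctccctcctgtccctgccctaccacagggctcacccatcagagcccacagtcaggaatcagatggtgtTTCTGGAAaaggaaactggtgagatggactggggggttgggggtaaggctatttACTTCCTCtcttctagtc
Itgb2l: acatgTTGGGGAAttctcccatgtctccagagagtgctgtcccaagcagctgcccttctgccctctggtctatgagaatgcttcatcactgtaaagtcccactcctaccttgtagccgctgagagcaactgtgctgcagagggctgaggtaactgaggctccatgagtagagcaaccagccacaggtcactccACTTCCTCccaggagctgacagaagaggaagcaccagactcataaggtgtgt
Mmp8, Ly6g, Fcgr4 and Itgb2l each hold the PU.1 letters once in the shown stretch, and Ngp and Ltf hold the C/EBP letters 2 times each without those of PU.1. No match overlaps another in these stretches. A match of letters is a description and not a binding site.

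Of the 36 genes, 34 reached the mean of 10 normalized counts needed for testing. Means were lower in Trex2 KO skin for all 34 tested genes, where 49.0% of all genes tested had a negative log2 fold change. The median log2 fold change over the 34 was −0.87, with a range from −2.02 for Ngp to −0.27 for Mxd1. None of the 34 passed the limma test over all genes, where 0.0151% of genes did and 0.00757% did as lower in Trex2 KO skin. On recovered whole reads edgeR called 0 of the 34 and 0.0227% of all genes lower. An unadjusted p under 0.05 was found for 21 of the 34, all lower in Trex2 KO skin, while 11.5% of all genes tested were lower by that measure. Mmp9 was the only 1 of the 34 whose libraries did not overlap between the genotypes, with all 6 Trex2 KO libraries below every WT library, as was the case for 1.29% of all genes tested. DESeq2 on the same reads called Mmp9 (adjusted p = 0.0481) and Selplg (adjusted p = 0.0487) lower, where it called 2.15% of all genes lower. Without WT replicate 4, limma called Pglyrp1 (adjusted p = 0.0483), where 2.1% of all genes were called lower. Over all alternatives these were the lowest adjusted p of the 3 genes, and the highest was 0.892 for each, with depth as a covariate.

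The differences were smaller without Trex2 KO replicates 9 and 12, the libraries with the lowest values, and with depth in the model. These replicates were the 2 lowest libraries for 31 of the 34 genes, so leaving them out had to make the differences of those genes smaller. Trex2 KO replicate 12 was also the deepest library, at 15557862 reads, and Trex2 KO replicate 9 had 7097436, while WT replicate 3, the highest for 18 genes, was the shallowest at 1208896. Trex2 KO replicate 10 had 12867142 reads and was the lowest for 0 genes. Its 36 genes summed to 26126, and the lowest WT sum was 30539. Trex2 KO replicate 8 had 7602952 reads and was the highest of its group for 28 genes. The part of depth in the result was not tested beyond these fits. Without both replicates the median log2 fold change was −0.39, and 9 of 34 genes had an unadjusted p under 0.05 and were lower, against 6.0% of all genes. With log10 of the library depth in the model, where depth and genotype overlap in part, the median was −0.50 and the count 1, against 2.29% of all genes. In the 7 libraries of intermediate depth (Trex2 KO replicates 7, 8 and 9 and WT replicates 2, 4, 5 and 6) the median was −0.73 and the count 5, against 4.31% of all genes. In whole skin, fewer neutrophils and less of a transcript per neutrophil cannot be told apart. Nor can either be told apart from changes in other cells that express some of these genes, or in the share of other tissue.

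**Figure D1:**
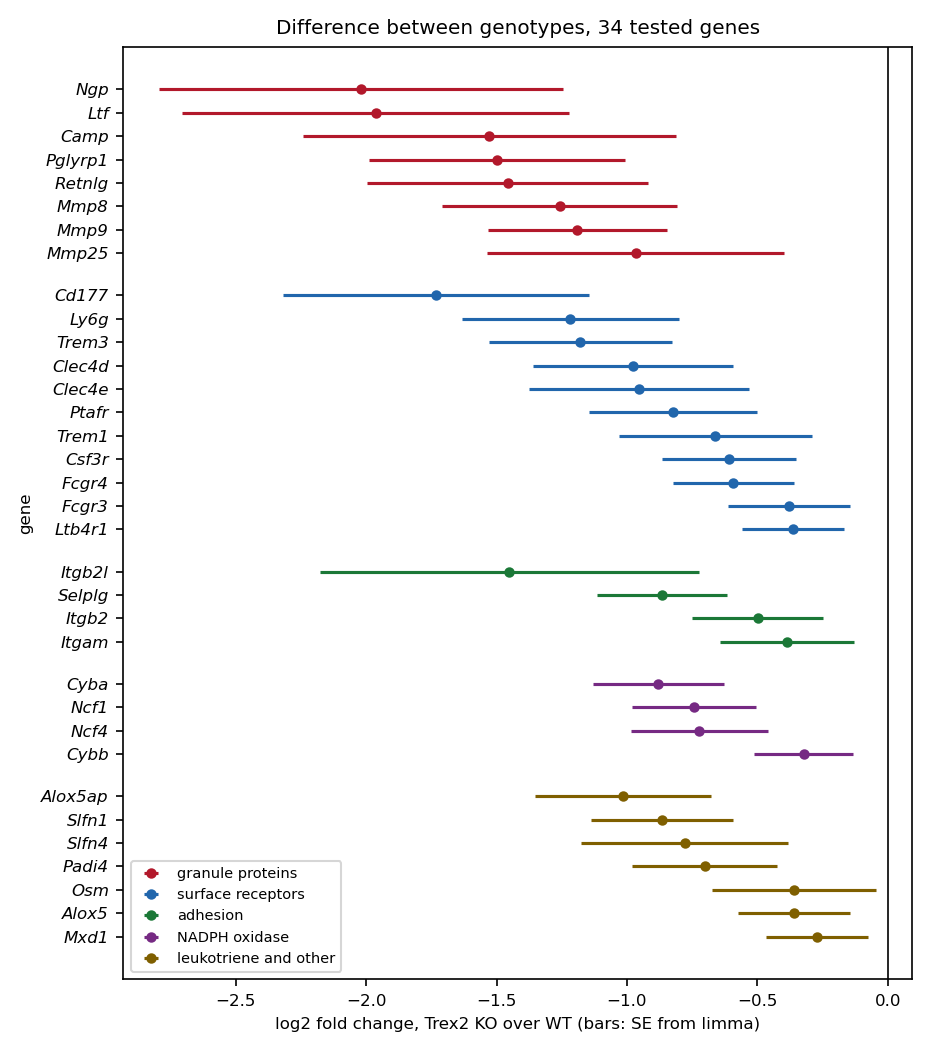
Log2 fold change of the 34 tested genes, Trex2 KO over WT, by role (points, with the SE from limma as bars). All 34 points lie below 0, from −2.02 for Ngp to −0.27 for Mxd1.

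Levels between genes can be compared only per length, here as normalized counts per kb of annotated exon. Retnlg, a resistin-like secreted protein of neutrophils, was the most abundant of the 36, with 9245 ± 7372 normalized counts per kb in Trex2 KO skin and 20382 ± 8516 in WT skin (SD, n = 6 and 5). Ngp, a cathelicidin-related protein of secondary granules, came second in WT skin with 1340.1 ± 1076 normalized counts per kb in Trex2 KO skin and 3874 ± 1958 in WT skin (SD, n = 6 and 5). Alox5ap, the membrane protein that presents arachidonic acid to 5-lipoxygenase, had 1356 ± 684 normalized counts per kb in Trex2 KO skin and 2528 ± 759.6 in WT skin (SD, n = 6 and 5). The early granule genes stood at the other end. Mpo, which encodes myeloperoxidase, had 0.469 ± 0.282 normalized counts per kb in Trex2 KO skin and 1.02 ± 1.28 in WT skin (SD, n = 6 and 5), from 15 reads in all Trex2 KO libraries and 12 in all WT libraries. Elane, which encodes neutrophil elastase, had 1.08 ± 0.554 normalized counts per kb in Trex2 KO skin and 1.42 ± 1.94 in WT skin (SD, n = 6 and 5), from 10 and 5 reads. Prtn3 and Ctsg, which encode proteinase 3 and cathepsin G of the same granules, were added after their values were seen. Ctsg had 1.04 ± 1.14 normalized counts per kb in Trex2 KO skin and 0.959 ± 1.39 in WT skin (SD, n = 6 and 5). Prtn3 was the exception among these 4 early genes, with 19.9 ± 11.7 normalized counts per kb in Trex2 KO skin and 36 ± 20.3 in WT skin (SD, n = 6 and 5), and was read in all 11 libraries.

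**Figure D2:**
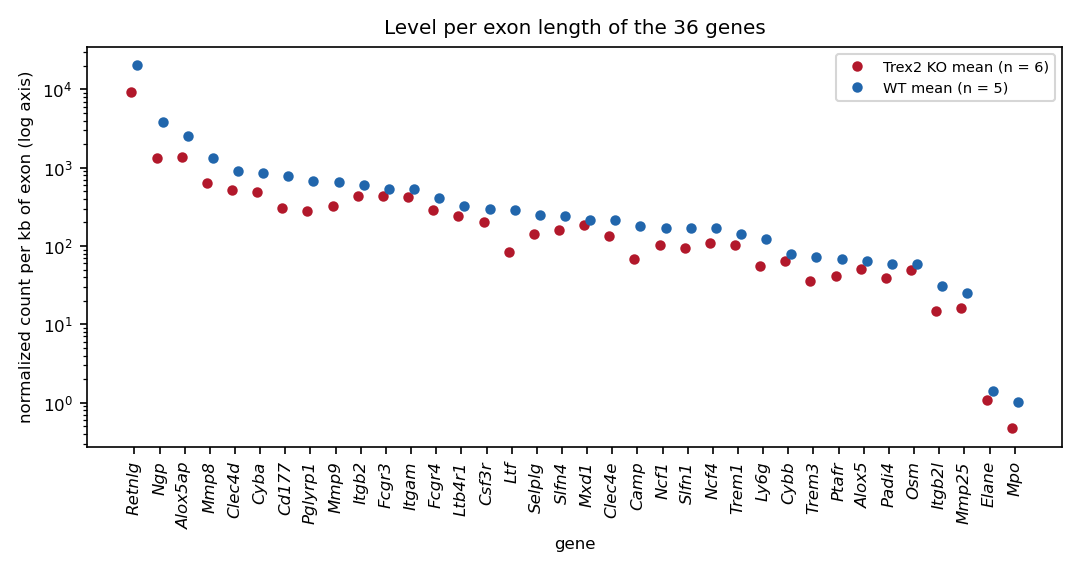
Mean normalized count per kb of exon for each of the 36 genes in Trex2 KO (n = 6) and WT skin (n = 5), on a log axis and ordered by the WT mean. Retnlg stands highest in both genotypes, and Elane and Mpo lie near 1 or below, under all other genes.

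Granule proteins had the most negative median of the 5 role groups. All 8 tested members had a negative log2 fold change (median −1.48), 6 of the 8 with an unadjusted p under 0.05, against 11.5% of all genes tested, and limma called none with all libraries. The calls of Mmp9 by DESeq2 and of Pglyrp1 without WT replicate 4 are given above. Mmp9, the gelatinase of tertiary granules, had 434 to 1756 with a median of 1209 in Trex2 KO skin, against 2415, 2902, 1829, 1775 and 2627 in WT replicates 2 to 6. The highest Trex2 KO library, replicate 8, lay close under the lowest WT library, replicate 5 (log2 fold change −1.19 with an SE of 0.34, limma adjusted p = 0.108). Mmp8, the neutrophil collagenase, had 507 to 3129 with a median of 1549.8 in Trex2 KO skin, against 2337, 4941, 1731, 3019 and 3896 in WT skin. Here replicates 8, 10 and 11 of the Trex2 KO group lay within the WT range (log2 fold change −1.26 with an SE of 0.45, limma adjusted p = 0.135). Pglyrp1, a peptidoglycan-binding granule protein that kills bacteria, had 119 to 925 with a median of 566 in Trex2 KO skin, against 1434, 1579, 504, 1214 and 1466 in WT skin. WT replicate 4 was the lowest of its group and overlapped the Trex2 KO libraries (log2 fold change −1.50 with an SE of 0.49, limma adjusted p = 0.117).

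The 3 secondary granule genes Ngp, Camp and Ltf lie on chromosome 9 within 109847379 to 111042767 and varied widely. Ngp had 2120.3, 3605, 331, 1335, 2312 and 123 in Trex2 KO replicates 7 to 12, against 3343, 6191, 1256, 7122 and 5755 in WT replicates 2 to 6. The Trex2 KO libraries spanned a 29.4-fold range and the WT libraries a 5.67-fold range, with Trex2 KO replicate 12 the lowest and WT replicate 5 the highest (log2 fold change −2.02 with an SE of 0.77, limma adjusted p = 0.147). Ltf, the iron-binding lactoferrin, had 404, 467, 106, 307, 427 and 23.9 in the same Trex2 KO libraries, against 617, 948, 197, 1875 and 1378 in WT skin. The order was alike, with the lowest value in Trex2 KO replicate 12 and the highest in WT replicate 5 (log2 fold change −1.96 with an SE of 0.74, limma adjusted p = 0.145). Camp, the precursor of the mouse cathelicidin peptide CRAMP, had 51.4 ± 34.9 in Trex2 KO skin and 136 ± 85.8 in WT skin (SD, n = 6 and 5), and WT replicate 4 lay below 5 of the 6 Trex2 KO libraries (log2 fold change −1.53 with an SE of 0.71, limma adjusted p = 0.206). Retnlg had 1165 to 13186 with a median of 4935 in Trex2 KO skin, against 14092, 16931, 5965, 7433 and 16011 in WT skin. Trex2 KO replicate 8 stood above WT replicates 4 and 5, and replicate 11 above WT replicate 4 (log2 fold change −1.46 with an SE of 0.54, limma adjusted p = 0.141). Mmp25, a membrane-anchored metalloproteinase of neutrophils, had 85.1 ± 56.2 in Trex2 KO skin and 135 ± 55.5 in WT skin (SD, n = 6 and 5), a log2 fold change of −0.97 with an SE of 0.57 (limma adjusted p = 0.303).

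Surface receptors were negative in all 11 members (median log2 fold change −0.82). Of the 11, 8 had an unadjusted p under 0.05, where 11.5% of all genes tested were lower by that measure. Cd177, a surface glycoprotein of neutrophils that is stored in their secondary granules, had 136 to 1751 with a median of 962 in Trex2 KO skin, against 1920.0, 3163, 1009.6, 2353 and 2789.8 in WT skin. Only WT replicate 4 lay within the Trex2 KO range (log2 fold change −1.73 with an SE of 0.59, limma adjusted p = 0.123). Ly6g, the antigen used to identify mouse neutrophils, had 55.5, 96.3, 23.0, 52.5, 65.4 and 18.4 in Trex2 KO skin, against 149, 149, 67.8, 57.2 and 149 in WT skin. WT replicates 2, 3 and 6 were at the same level, above every Trex2 KO library, and WT replicates 4 and 5 lay among the Trex2 KO values (log2 fold change −1.22 with an SE of 0.41, limma adjusted p = 0.124). Trem3, a receptor of the TREM family next to Trem1 on chromosome 17, had 14.9 to 76.2 with a median of 25.2 in Trex2 KO skin, against 67.1, 67.7, 55.6, 60.8 and 107 in WT skin. All Trex2 KO libraries but replicate 8 lay below every WT library (log2 fold change −1.18 with an SE of 0.35, limma adjusted p = 0.108).

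The other receptors had smaller differences. Trem1, which amplifies inflammatory signals in neutrophils and monocytes, had 311 ± 188 in Trex2 KO skin and 421 ± 76.4 in WT skin (SD, n = 6 and 5), a log2 fold change of −0.66 with an SE of 0.37 (limma adjusted p = 0.282). The C-type lectin receptors of fungal and mycobacterial glycolipids, Clec4d and Clec4e, are neighbours on chromosome 6. Clec4d had 826 ± 501 in Trex2 KO skin and 1465 ± 492 in WT skin (SD, n = 6 and 5), a log2 fold change of −0.98 with an SE of 0.38 (limma adjusted p = 0.153), and Clec4e had 658 ± 449 in Trex2 KO skin and 1079.9 ± 357 in WT skin (SD, n = 6 and 5), a log2 fold change of −0.95 with an SE of 0.42 (limma adjusted p = 0.188). Csf3r, the receptor of granulocyte colony-stimulating factor, had 731 ± 279 in Trex2 KO skin and 1081 ± 282 in WT skin (SD, n = 6 and 5), a log2 fold change of −0.61 with an SE of 0.26 (limma adjusted p = 0.174). For Csf3r, WT replicate 5 was lower than Trex2 KO replicates 8, 10 and 11, although the same library was the highest of all for Ngp, Camp and Ltf. The activating IgG receptors Fcgr3 and Fcgr4, which lie near each other on chromosome 1, had log2 fold changes of −0.38 (SE 0.23) and −0.59 (SE 0.23; limma adjusted p = 0.325 and 0.151). Fcgr3 is also made by macrophages and natural killer cells. Ptafr, the receptor of platelet-activating factor, stood at −0.82 (SE 0.32), and Ltb4r1, the high-affinity receptor of leukotriene B4, at −0.36 (SE 0.20; limma adjusted p = 0.152 and 0.268). Ltb4r1 was the most even gene of the Trex2 KO group, at 289.8 to 379 with a median of 348, while its WT libraries ran from 291 to 617.

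**Figure D3:**
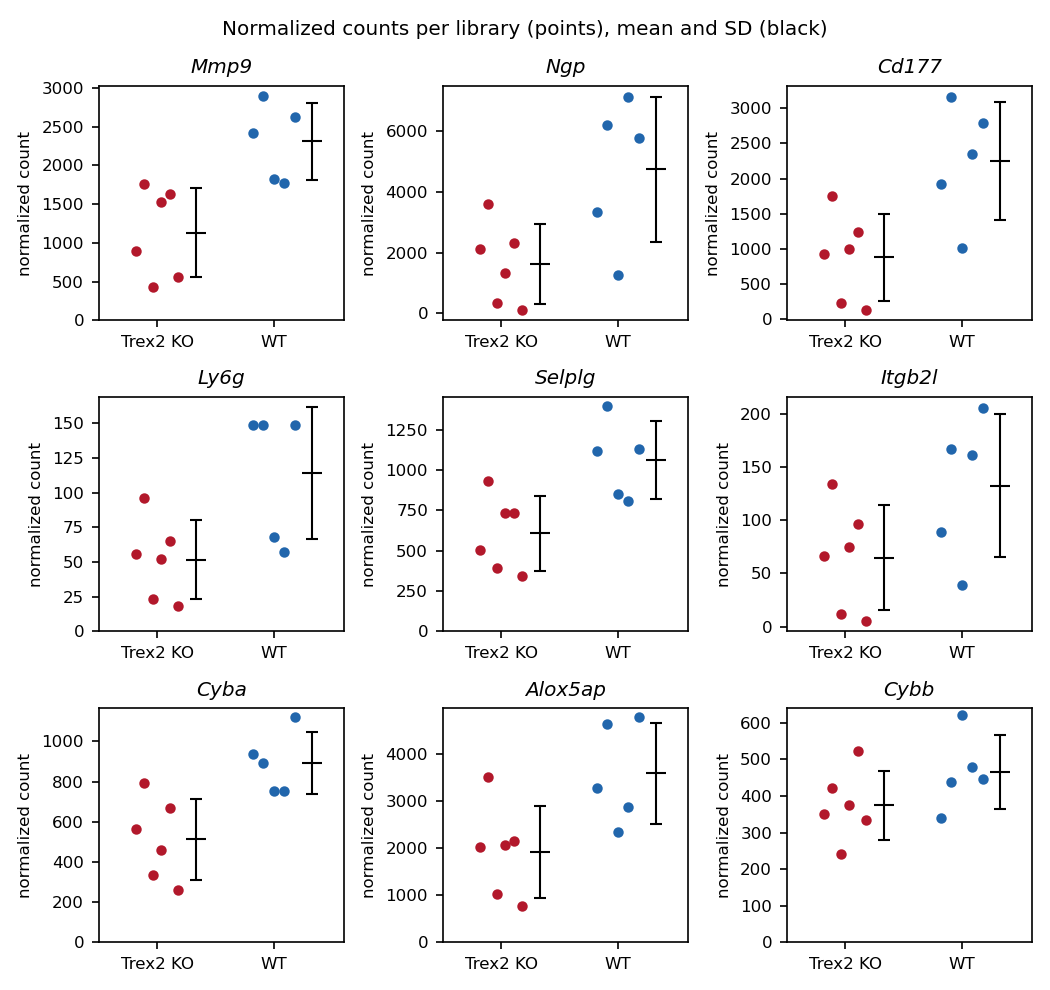
Normalized counts of 9 of the genes in each Trex2 KO library (red, n = 6) and each WT library (blue, n = 5), with mean and SD in black. Mmp9 has no overlap between the genotypes, while the other 8 genes do.

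Adhesion molecules were negative in all 4 members (median −0.68), 1 of them, Selplg, with an unadjusted p under 0.05, a count too small to set apart from the 11.5% of all genes tested. DESeq2 called it (adjusted p = 0.0487) and limma did not. Selplg, which encodes the selectin ligand PSGL-1 used for rolling, had 505, 934, 393, 736, 730.4 and 343 in Trex2 KO skin, against 1116, 1399, 851, 808 and 1131 in WT skin. Only Trex2 KO replicate 8 reached the WT range (log2 fold change −0.87 with an SE of 0.25, limma adjusted p = 0.108). Itgam and Itgb2 encode the chains of the integrin Mac-1, which neutrophils share with monocytes and macrophages. Itgam had 2112 ± 759.8 in Trex2 KO skin and 2690.1 ± 704 in WT skin (SD, n = 6 and 5), a log2 fold change of −0.39 with an SE of 0.26 (limma adjusted p = 0.356), and Itgb2 had 736 to 1931 with a median of 1383 in Trex2 KO skin, against 1225, 2153, 1870.2, 1731 and 2068 in WT skin (log2 fold change −0.50 with an SE of 0.25, limma adjusted p = 0.236). For Itgam WT replicate 2 lay below 4 of the 6 Trex2 KO libraries. Itgb2l, a gene related to Itgb2 that is expressed in neutrophils, had 5.55 to 134 with a median of 70.2 in Trex2 KO skin, against 88.9, 167, 38.9, 162 and 206 in WT skin. Its spread was wide, like that of Ngp and Ltf, and WT replicate 4 lay below 4 of the 6 Trex2 KO libraries (log2 fold change −1.45 with an SE of 0.73, limma adjusted p = 0.233).

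The phagocyte NADPH oxidase consists of a membrane flavocytochrome, encoded by Cybb and Cyba, and cytosolic subunits that join it on activation, among them p47phox (Ncf1) and p40phox (Ncf4). The 4 genes were negative with a median of −0.73. An unadjusted p under 0.05 was found for 3 of them, where 11.5% of all genes tested were lower by that measure. Cyba had 562, 794, 335, 461, 667 and 261 in Trex2 KO skin, against 936, 893, 752, 753 and 1123 in WT skin. Only Trex2 KO replicate 8 reached the WT range (log2 fold change −0.88 with an SE of 0.25, limma adjusted p = 0.108). Ncf1 had 246 to 576 with a median of 347 in Trex2 KO skin, against 461, 893, 517, 606 and 639 in WT skin, and replicates 8 and 11 of the Trex2 KO group overlapped WT (log2 fold change −0.74 with an SE of 0.24, limma adjusted p = 0.115). Ncf4 had 106 to 359.7 with a median of 214 in Trex2 KO skin, against 327, 411, 295, 272 and 395 in WT skin, with the same overlap by replicates 8 and 11 (log2 fold change −0.72 with an SE of 0.26, limma adjusted p = 0.138). Cybb, the catalytic gp91phox subunit on chromosome X, had 243 to 523 with a median of 363 in Trex2 KO skin, against 341, 438, 622, 478 and 447 in WT skin. It was the flattest of the 4 (log2 fold change −0.32 with an SE of 0.19, limma adjusted p = 0.302), and its highest library was WT replicate 4, which was the lowest WT library for 18 of the 34 tested genes.

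Of the remaining 7 genes all were negative (median −0.70). Of the 7, 3 had an unadjusted p under 0.05, where 11.5% of all genes tested were lower by that measure. Alox5 and Alox5ap make leukotriene B4, a neutrophil attractant, together with a hydrolase. Alox5ap had 779 to 3506 with a median of 2046 in Trex2 KO skin, against 3290.1, 4643, 2352, 2881 and 4781 in WT skin. Only Trex2 KO replicate 8 entered the WT range (log2 fold change −1.01 with an SE of 0.34, limma adjusted p = 0.12). Alox5, the lipoxygenase itself, had 208 ± 58.9 in Trex2 KO skin and 261 ± 47.0 in WT skin (SD, n = 6 and 5), a log2 fold change of −0.36 with an SE of 0.21 (limma adjusted p = 0.304). Padi4, which citrullinates histones when neutrophils release extracellular traps, had 96.8 to 304 with a median of 183 in Trex2 KO skin, against 239.5, 334, 211, 311 and 336 in WT skin (log2 fold change −0.70 with an SE of 0.28, limma adjusted p = 0.155). Trex2 KO replicates 8, 10 and 11 lay within the WT range of Padi4. The Schlafen genes Slfn1 and Slfn4 of chromosome 11 differed in level and spread. Slfn1 had 91.6 to 281 with a median of 188 in Trex2 KO skin, against 258, 451, 211, 281 and 378 in WT skin, where only Trex2 KO replicate 8 overlapped WT (log2 fold change −0.87 with an SE of 0.27, limma adjusted p = 0.114). Slfn4, which is inducible by interferon in myeloid cells, had 632 ± 393 in Trex2 KO skin and 949 ± 326 in WT skin (SD, n = 6 and 5), a log2 fold change of −0.78 with an SE of 0.40 (limma adjusted p = 0.241). Osm, a cytokine of the interleukin 6 family, had 113 ± 57.5 in Trex2 KO skin and 134 ± 33.4 in WT skin (SD, n = 6 and 5), and Mxd1, a MAX partner that opposes MYC, had 1306 ± 372 in Trex2 KO skin and 1542 ± 269 in WT skin (SD, n = 6 and 5). Their log2 fold changes were −0.36 (SE 0.32) and −0.27 (SE 0.20; limma adjusted p = 0.491 and 0.398).

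The differences between libraries of 1 genotype were shared by most of the genes. Trex2 KO replicates 9 and 12 were the 2 lowest of all 11 libraries for 31 of the 34 tested genes, and both lay below every WT library for 32 of them. Trex2 KO replicate 8 was the highest of its group for 28 genes and exceeded the WT median for 13. Among WT libraries, replicate 3 was the highest for 19 genes and replicate 4 the lowest for 18. The 36 genes summed to 25095, 47445, 11674, 26126, 34477 and 11104 in Trex2 KO replicates 7 to 12, and to 44986, 64002, 30539, 43790.2 and 59430.2 in WT replicates 2 to 6. The sum of Trex2 KO replicate 8 exceeded that of WT replicates 2, 4 and 5, and the sum of every other Trex2 KO library but replicate 11 lay below all WT libraries. Within WT skin, the genes did not keep 1 order. WT replicate 5 was the highest for Ngp, Camp and Ltf but the lowest for Csf3r, Ly6g and Ptafr, and WT replicate 4 was the lowest for Ngp, Camp, Ltf and Itgb2l but the highest for Cybb.

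**Figure D4:**
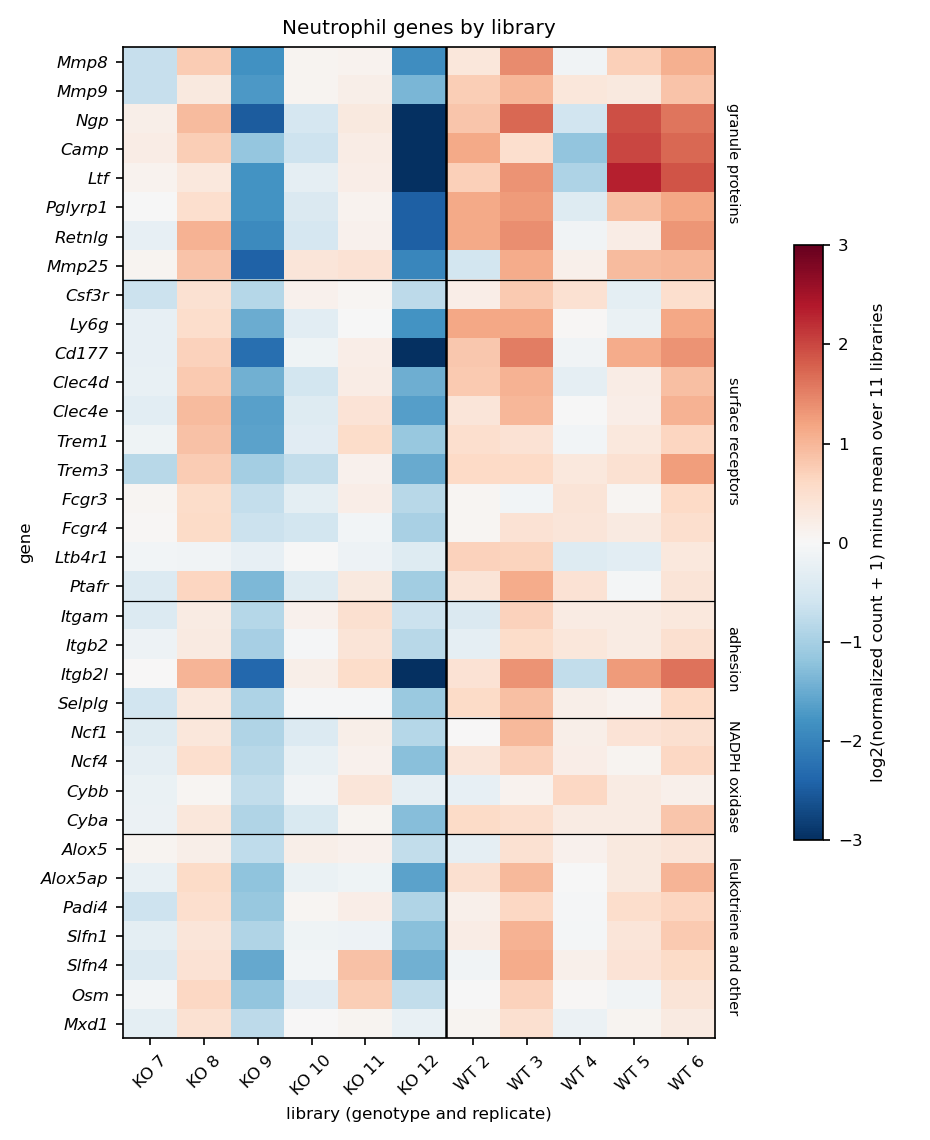
Log2(normalized count + 1) of the 34 tested genes minus each gene's mean over the 11 libraries, by library (columns, 6 Trex2 KO then 5 WT) and role (blocks of rows). Values below −3 take the colour of −3. Trex2 KO replicates 9 and 12 are blue in nearly every row, and WT replicate 4 is blue in Ngp, Camp, Ltf and Itgb2l.

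Other genes of neutrophils and of their recruitment were read in the same libraries from lists of genes with known roles. Of 40 tested genes of a further neutrophil list, 36 were negative (median log2 fold change −0.81) and 26 had an unadjusted p under 0.05, all lower, with 0 called by limma. Stfa2l1, a stefin A gene, stood at −1.61 (SE 0.40), Ifitm6, an interferon-induced transmembrane family gene, at −1.54 (SE 0.46), and Wfdc17, a whey acidic protein family gene, at −1.04 (SE 0.31). The 4 positive genes, named after their values were seen, were Stfa1, Stfa3, BC100530 and Sirpb1a, with log2 fold changes of 0.14, 0.07, 0.23 and 0.13. All 7 other tested genes of the phagocyte oxidase were negative (median −0.37), 4 with an unadjusted p under 0.05. Rac2, the small GTPase that switches on the oxidase in neutrophils, had 880.2 ± 299 in Trex2 KO skin and 1864 ± 452 in WT skin (SD, n = 6 and 5), with no overlap between the genotypes (log2 fold change −1.12 with an SE of 0.24, limma adjusted p = 0.108). Every Trex2 KO library lay below every WT library for 1.29% of all genes tested. Vav1, an activator of Rac GTPases, stood at −0.64 (SE 0.22).

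Of the oxidases outside phagocytes, 2 of 3 tested were positive, both with an unadjusted p under 0.05. Duox1, a dual oxidase of epithelia, had 168 ± 50.8 in Trex2 KO skin and 82.6 ± 31.6 in WT skin (SD, n = 6 and 5), a log2 fold change of 1.05 with an SE of 0.28 (limma adjusted p = 0.108). Its maturation factor Duoxa1 had 133 ± 42.8 in Trex2 KO skin and 72.5 ± 15.0 in WT skin (SD, n = 6 and 5) with no overlap between the genotypes (log2 fold change 0.84 with an SE of 0.22, limma adjusted p = 0.108). Every Trex2 KO library lay above every WT library for 1.02% of all genes tested. Nox4 stood at −0.20 (SE 0.30), a sign that turned on reads thinned to equal depth (0.21). Of 9 tested attractants and growth factors of neutrophils all had a negative log2 fold change (median −1.01, from −1.34 to −0.16). Of these, 3 had an unadjusted p under 0.05. The smallest change was that of Cxcl1, named after its values were seen, with means of 205.2 in Trex2 KO skin and 204.7 in WT skin. Cxcl5, a ligand of Cxcr2 made by epithelial cells, stood at −1.34 (SE 0.39), Il1a at −0.72 (SE 0.26) and Tnf at −1.33 (SE 0.53). Of 10 adhesion partners on endothelium 8 were negative (median −0.38), with 3 lower and 1 higher at an unadjusted p under 0.05. Jam3, a junctional adhesion molecule that binds Mac-1, stood at −0.75 (SE 0.17), Cd99l2 at 0.34 (SE 0.11) and Icam2 at −0.68 (SE 0.27). The leukotriene and prostaglandin genes outside the 36 were split, with 3 of 8 negative (median 0.10) and 2 higher at an unadjusted p under 0.05. Ltb4r2, the low-affinity leukotriene B4 receptor of epithelial cells, stood at 1.11 (SE 0.40), Ptgs1 at 0.58 (SE 0.21) and Alox12 at 0.48 (SE 0.39). No gene of these 6 lists was called by limma, and the unadjusted counts stand against 11.5% of all genes lower and 12.9% higher.

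Markers of other cells are given with the same measures, and their part in the result was not tested. Limma called none of them, and the counts at an unadjusted p under 0.05 stand against 11.5% of all genes lower and 12.9% higher. Of 16 monocyte and macrophage markers 12 were negative (median −0.43), with 6 lower at an unadjusted p under 0.05, and they summed to 18313 to 33698 normalized counts per library in Trex2 KO skin and 30248 to 39568 in WT skin. Ly6c2, of inflammatory monocytes, stood at −1.52 (SE 0.42) and Cd68, a lysosomal protein of macrophages, at −0.74 (SE 0.22). All 6 markers of leukocytes at large were negative (median −0.63), 4 of them with an unadjusted p under 0.05, and summed to 5047 to 13234 normalized counts per library in Trex2 KO skin and 11219 to 16913 in WT skin. Arhgdib stood at −0.93 (SE 0.20), Coro1a at −0.995 (SE 0.32) and Lcp1 at −0.74 (SE 0.27). All 5 tested of 8 natural killer and cytotoxic markers were negative with an unadjusted p under 0.05 (median −1.14), at sums of 78.4 to 199.5 normalized counts per library in Trex2 KO skin and 208 to 424 in WT skin. Gzma, Gzmb and Nkg7 had log2 fold changes of −1.77, −1.14 and −1.10. Keratinocyte markers were positive in 9 of 9 (median 0.99), 6 of them with an unadjusted p under 0.05. They summed to 99600.0 to 304800.0 normalized counts per library in Trex2 KO skin and 56532 to 156842 in WT skin, and to 304800.0 and 283887 in Trex2 KO replicates 9 and 12, the 2 highest of the 11 libraries for these markers and the lowest in the neutrophil genes. Dsp of desmosomes, Trp63 of basal cells and Krt6a, an induced keratin, stood at log2 fold changes of 1.4, 0.99 and 0.94.

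T cell markers were negative in 1 of 2 tested (Lck at −0.68 and Cd4 at 0.63), with sums of 44.1 to 70.7 normalized counts per library in Trex2 KO skin and 89.0 to 113 in WT skin. The B cell marker Cd79b, the only 1 of 4 tested, stood at −0.66 with an unadjusted p under 0.05, and the list summed to 18 to 29.5 normalized counts per library in Trex2 KO skin and 28.1 to 54.2 in WT skin. Eosinophil markers summed to 3.47 to 18 normalized counts per library in Trex2 KO skin and 0 to 18.8 in WT skin, with Epx at 0 in all 11 libraries. Mast cell markers were negative in 5 of 5 (median −0.22) and summed to 926 to 1254 normalized counts per library in Trex2 KO skin and 839 to 1526 in WT skin, with 1, Kit, at an unadjusted p under 0.05 (−0.37), Cpa3 at −0.22 and Cma1 at −0.20. Haemoglobin and heme synthesis genes of red cells summed to 23.3 to 72.9 normalized counts per library in Trex2 KO skin and 41.7 to 176 in WT skin, with 1 of 2 tested, Hba-a1, at an unadjusted p under 0.05 (−1.11) and Hba-a2 at −0.77. Fibroblast markers were negative in 6 of 6 (median −0.30) and summed to 43814 to 67839 normalized counts per library in Trex2 KO skin and 48532 to 68903 in WT skin, with Col1a2 at −0.31, Dcn at −0.40 and Col1a1 at −0.29. Skeletal muscle markers were negative in 5 of 6 (median −0.28) and summed to 31507 to 65440.5 normalized counts per library in Trex2 KO skin and 41692 to 68432 in WT skin, with 1, Myh4, at an unadjusted p under 0.05 (−0.75), a share near that of all genes, Mylpf at −0.50 and Ckm at −0.31.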

How the data were processed

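RNA-seq of back skin was deposited as a table of normalized counts, which the values show to be read counts divided by a size factor per library (a signal unit). GRCm38, DESeq2 1.8.1, featureCounts 1.4.6 and TopHat2 2.0.8 are named in the submitters' processing notes. How the steps were ordered, which annotation was counted and whether counting used strand were not given in the sources used here. Reads of overlapping genes and close paralogues may therefore be split. Dividing by the smallest step gave whole reads for 100% of values (within 0.01). Genes with a mean of at least 10 were tested with limma 3.58.1 on log2(value + 1) with Benjamini-Hochberg adjustment. On the recovered reads, edgeR 4.0.16 called 4 genes and DESeq2 1.42.0 called 576, against 2 with limma. The scripts were tested on simulated data, with the same spread setting for every gene and no shift shared by the genes of a library. That checks the code and not the calls at the spread of these libraries. Nothing says that libraries are separate animals beyond their numbers, so p-values measure the spread between libraries. Members and lists were chosen with earlier results of these data known. Values per library were given for the 3 members of smallest p per role and the 3 of highest level per length, and up to 3 genes of smallest p were named per other list. Some genes of these lists are not reported here. Of the list genes, 10 were matched through older names and 6 were not found by symbol. Promoters came from RefSeq (GRCm38.p6) and gene positions from GENCODE M21.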

Additional observations from a re-analysis of the deposited data

Results flagged for a closer look

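In 72 groups of libraries examined, a single library stood apart in 2, and chance alone would mark about 1 in 20 groups. For Mpo the highest Trex2 KO library, replicate 7, had 3.47 normalized counts, which is 2 reads. For Trem3 the highest WT library, replicate 6, had 107 normalized counts and lay apart from the other 4 WT libraries.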

How the results depend on the processing

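Of 850 values of single members under 25 alternatives, 846 kept their sign and their side of the threshold, 3 were called and 1 changed sign. The number of members called was 0 under limma, 2 under DESeq2, and 0 to 1 when 1 library was left out (1 without WT replicate 4). DESeq2 called 2.15% of all genes lower, and limma without WT replicate 4 called 2.1% lower. The number with an unadjusted p under 0.05 was 21, where 11.5% of all genes were lower by that measure. It was 15 to 29 when 1 library was left out, where the share of all genes was 7.51% to 13.3%. With depth as a covariate it was 1 (2.29% of all genes), and without Trex2 KO replicates 9 and 12 it was 9 (6.0%). In the 7 libraries of intermediate depth, an alternative chosen after seeing the data, it was 5 (4.31%). The sign of the log2 fold change reversed for Nox4 on reads thinned to equal depth (0.21) and in the libraries of intermediate depth (0.085), for Ckm (0.0571) and Hba-a2 (0.22) with depth as a covariate, and for Osm (0.0414) and Alox12 (−0.0024) without Trex2 KO replicates 9 and 12. The cause was not tested. No paired analysis was possible because the genotypes share no replicate numbers. Depth limits Elane, Mpo and Ctsg, for which 3 reads correspond to 1.04 to 13.5 normalized counts.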
